A study of Mus musculus with 50 samples.

Results

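The variants described here are the sites of chromosome 11 at which the same alternate allele was called in 2 or more mouse myeloma tumours. They were chosen by the number of carrier tumours in the deposited variant table, as rows with 1 alternate allele, on chromosome 11, with a count of carriers of at least 2. This gave 1848 variants, of 2891 on chromosome 11 and 25624 in the whole table. They are 14.3% of the 12919 variants shared by 2 or more tumours anywhere in the genome. Just inside the limit lie the 763 variants with 2 carriers, and just outside it the 1043 chromosome 11 variants called in 1 tumour, termed private. The choice used the calls themselves, so who carries which variant is given as a description without a test, whereas the share of reads at a called site did not enter the choice.

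The tumours are mesenteric lymph node tumours of mice with the genotype IL6Myc, a transgenic myeloma model with an intact immune system named for interleukin 6 and Myc, and the labels give the cells as malignant plasma cells. Each of the 45 tumours came from its own mouse, and 44 of them have a column in the table and are used here. The labels also list 5 kidneys of wild-type Balb/c mice, which were not analysed here. The sources used here do not give age, treatment, the strain background of the IL6Myc mice or the promoters of the transgenes. Tumours are named by number, 1 to 45, and tumour 3 is the one titled 1201. Plasma cell identity cannot be read from exome DNA. Each value is the alternate allele's percent of the reads at a site, called the read share below. Read depth is unknown, so no interval is set around a single percent, and an empty cell can mean the reference base or too few reads.

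In an inbred cross, DNA inherited from one founder strain passes on in long blocks that are broken by recombination in each generation, so that neighbouring variants are carried together until a crossover separates them. A variant present on 1 of the 2 copies of a chromosome gives a read share near an even split. In a tumour that share moves when a copy is gained, lost or replaced, and in bulk DNA the share of cells with a change and the number of copies per cell cannot be told apart. Chromosome 11 of the mouse carries Trp53, whose protein p53 halts division or triggers death in cells with damaged DNA, and which is mutated or lost in part of human myelomas. Without the kidneys, inherited and acquired variants cannot be told apart here.

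Among the variants, 1524 were single-base changes (SNVs) and 324 were insertions or deletions. They ran from position 3127180 to position 120764033 on the mm10 build. The deposited annotation places 1109 in introns and 103 between genes, and calls 296 synonymous, 81 in a 3' UTR, 28 in a 5' UTR and 51 in splice regions. It calls 121 protein-altering, namely 111 missense, 4 frameshift and 6 in-frame changes, in 94 genes. By carriers, 556 variants had 3, 269 had 4, 48 had 5, 43 had 6 to 8 and 157 had 9 or 10. Only 12 had more than 10, and 1 of these, an intronic SNV of Sfi1 at 3133261, was called in all 44 tumours.

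At 38 places, 36 variants fell in a window from 250 bases before to 50 bases after the start of a RefSeq gene (GRCm38.p6, the assembly that mm10 names), and the deposited reference base matched the RefSeq base at all 38. None fell in any of 83 RefSeq miRNA hairpins of the chromosome. The sequences below are RefSeq bases on the strand of the gene, 5′ to 3′, each 29 bases long, with the changed base in capitals at position 15. They lie before the start of a gene, at places along the chromosome. The Ccl1, Ccl3 and Ggnbp2 sites all lie in 1 stretch, 82102140 to 90661718, carried by tumours 1, 2 and 3 (described below). A missing call at one of them cannot be read as the reference base. The Efcab9 site (C15T, 25 bases before the start, chr11:32527585-32527613) was called in tumours 3, 6, 7, 8, 9, 10, 11, 12, 14 and 15, the Ccl1 site (T15C, 62 before, chr11:82179860-82179888) in tumours 1 and 2, and the Ccl3 site (G15A, 42 before, chr11:83649406-83649434) in tumours 2 and 3. The Ggnbp2 site (G15T, 99 before, chr11:84870875-84870903) was called in tumours 1, 2 and 3, and the Gm11567 site (T15C, 102 before, chr11:99879071-99879099) in tumours 1, 2, 7 and 8. Gm11567 lies on the forward strand and the other 4 genes on the reverse strand.
Efcab9: tcatcttggggaccCtgtccaacattcta
Ccl1: actcccacctcttcTccatggtctgggaa
Ccl3: ccctcctcagccccGgattccatttcctc
Ggnbp2: gtcgggacacgagcGaggcggccgcggtc
Gm11567: ctgctgtgagaattTcctcttgaagatca
At the Efcab9 site the read share was 23.08% in tumour 3, against 50%, 73.33%, 52.63%, 63.64%, 51.52%, 78.57%, 39.13%, 40% and 57.14% in tumours 6, 7, 8, 9, 10, 11, 12, 14 and 15. At Ggnbp2 it was 30% in tumour 3, against 81.82% and 58.33% in tumours 1 and 2. At Ccl3, which encodes a chemokine that myeloma cells can secrete, it was 23.81% in tumour 3, against 50% in tumour 2. At each of these 3 sites tumour 3 was the lowest carrier. The Ccl1 site had 63.64% and 30.77% in tumours 1 and 2, and the Gm11567 site had 44.74%, 48.39%, 34.48% and 38.89% in tumours 1, 2, 7 and 8.

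Most of these variants belonged to long runs in 12 tumours: 1, 2, 3, 6, 7, 8, 9, 10, 11, 12, 14 and 15. A run is a stretch in which a tumour carried a fraction of at least 0.5 of every 11 neighbouring SNVs, with at least 10 calls, taken over SNVs whose median read share is 20 to 80%. Runs were split at gaps between calls of over 5 Mb, and single end calls more than 2 Mb off were left out. The 17 runs found hold 1703 of the 1848 variants, 252 proximal to Trp53 (towards position 1) and 1451 distal to it. The 12 tumours had 145 to 1388 of the variants each. The other 32 tumours had no run and 9 to 25 of the variants each, with a median of 15.5.

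The proximal runs had their shared core in 10 tumours between 26434374, in the Fanconi anaemia ligase gene Fancl, and 35323794, in the axon guidance gene Slit3. Over these 8.89 Mb, tumours 3, 6, 7, 8, 9, 10, 11, 12, 14 and 15 had a call at 87.5% of the 118 SNVs used, and none of the other 34 tumours had a call at any of them. Tumour 12 joined here: its run began at 26434374 and it lacked the nearest SNV before it, at 25358022. In the 9 others the block reached back to between 18508929 and 18885797, near the homeobox gene Meis1. These starts are loosely placed: with 21 neighbouring SNVs in place of 11, tumour 7 began at 20290290 and tumours 9 and 10 at 18885797. Tumours 3 and 11 alone went further, to 9215974 in the transporter gene Abca13, over 9.29 Mb with 29 variants, and no other tumour had a call at the 25 SNVs used there. Because a variant needs 2 carriers to be listed, full calling in a span with 2 carriers is set by the choice of variants.

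The runs of tumours 11, 12 and 15 ended at 35323794, and those of tumours 3, 9, 10 and 14 at 36171369, a synonymous SNV of the adhesion gene Tenm2. Tumours 11, 12 and 15 also had a call at that SNV, and with 21 neighbouring SNVs in place of 11 their runs ended there too, so these ends do not tell the 7 tumours apart. Tumours 6 and 8 went on to 42877081 and tumour 7 to 42593975, in the GABA receptor gene Gabrb2. The stretch from 36171369 to 42593975 rests on 5 SNVs, so its edges are loosely placed: with all variants used in place of SNVs, the run of tumour 8 ended at 35323794. Proximal runs were 26.96 Mb long in tumour 3, against 8.89 Mb in tumour 12, the shortest, and 26.1 Mb in tumour 11, the longest of the others. Which of tumours 3 and 11 had the longer run depended on the setting. With 21 neighbouring SNVs both had 26.96 Mb, and with all variants used tumour 3 had 26.11 Mb and tumour 11 had 26.84 Mb.

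Between the proximal and distal runs lay 36.67 Mb that hold Trp53 (69580348 to 69591873) and only 47 of the variants, 18 of them SNVs. Trp53 itself had no shared variant, and 11 variants lay within 5 Mb of it. Of the SNVs with a median read share of 20 to 80% in this gap, 4 fell on tumours with runs in a set pattern, and they were singled out after their values were seen. The intronic SNV of Dhrs7b at 60857663 was called in all 12 tumours with a run and in tumour 18. The intronic SNV of Acap1 at 69882322, 0.29 Mb from the end of Trp53, was called in tumours 1, 2, 3, 8 and 11 and in no other, and so was that of Vps53 at 76144726. The intronic SNV of Rpa1 at 75312465, a gene for a single-stranded DNA binding protein, was called in tumours 6, 7, 9, 10, 12, 14, 15 and 18. At Acap1, Vps53 and Rpa1, though not at Dhrs7b, the 12 tumours with runs fell into 2 sets without overlap, 1, 2, 3, 8 and 11 in one and the other 7 in the other. The sites were picked for their carriers, so this split is a description only.

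At Dhrs7b, the site with the most carriers, the read share was 24% in tumour 3, against 34.78% to 80% with a median of 55.8% in the 12 others. Tumour 3 was the lowest there, and the others were widely spread. At Acap1 tumour 3 had 35%, against 57.89%, 59.26%, 52.27% and 54.05% in tumours 1, 2, 8 and 11. At Vps53 tumour 3 had 33.33%, against 56.25%, 52.17%, 40.63% and 50% in the same 4 tumours. Tumour 3 was below the 4 other carriers at both. At Rpa1, which tumour 3 lacked, the 8 carriers ran from 36.96% to 56.82% with a median of 45.77%. Other SNVs of the gap had carriers without runs: the SNV of Ssh2 at 77295772 was called in 11 tumours, none of them with a run, that of C1qbp at 70978664 in tumour 6 and 4 tumours without a run, and that of 4930404A10Rik at 54402483 in tumours 2 and 32.

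By the run rule, distal runs of 5 tumours began together and ended apart. Tumours 1, 2, 3, 8 and 11, the carriers at Acap1 and Vps53, all began at 79547257 in Nf1 (80165627 with all variants used). Nf1 is a gene for a brake on RAS signalling. They lacked the SNV before it, at 77295772 in Ssh2, but only tumours without a run had that SNV. The same 5 tumours had calls further back, at Vps53 and Acap1, and the rule leaves out single end calls more than 2 Mb off. The start, and run lengths counted from it, are therefore loosely placed. To 82102140 in the chemokine gene Ccl12, these 5 tumours had a call at 89.3% of the 28 SNVs used. There tumours 8 and 11 ended, and the next 8.56 Mb, with 546 variants, were carried by tumours 1, 2 and 3, which had a call at 92.4% of 439 SNVs. Tumour 3 ended at 90661718 in Tom1l1, lacking the SNV at 93600480. From its end to 96801384 lay 481 variants, and the 428 SNVs used there were all called in tumours 1 and 2 and in no other tumour. Full calling is again set by the choice of variants. Not all 481 were limited to these 2 tumours: an intronic insertion or deletion of Cacna1g at 94412939 was called in 32 tumours.

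Further on, carriers were added. Tumour 8 was a carrier again from 96801384 in the chromatin gene Cbx1, and the run of tumour 7 began at 97032793 in Scrn2. Tumour 7 lacked the SNV at 97030834 but had a call before it, at 97030352, so this start is loosely placed. The 3.98 Mb from 97032793 to 101011812 held 348 variants. Tumours 1, 2, 7 and 8 had a call at 91.3% of the 290 SNVs used there, whereas all other tumours together had 0.0172% of the possible calls. These runs ended at 101070226 in Naglu, the gene for a lysosomal enzyme, in tumours 2, 7 and 8, and at 101011812 in Atp6v0a1 in tumour 1. Tumour 1 also had a call at 101070226, and with 21 neighbouring SNVs in place of 11 its run ended there too. These ends therefore do not tell tumours 1, 2, 7 and 8 apart. The distal run was 11.1 Mb long in tumour 3, against 21.5 Mb in tumours 1 and 2, 4.04 Mb in tumour 7, 2.55 and 4.27 Mb in tumour 8, which had 2, and 2.55 Mb in tumour 11. Tumours 3, 7, 8 and 11 had both proximal and distal runs.

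**Figure D1:**
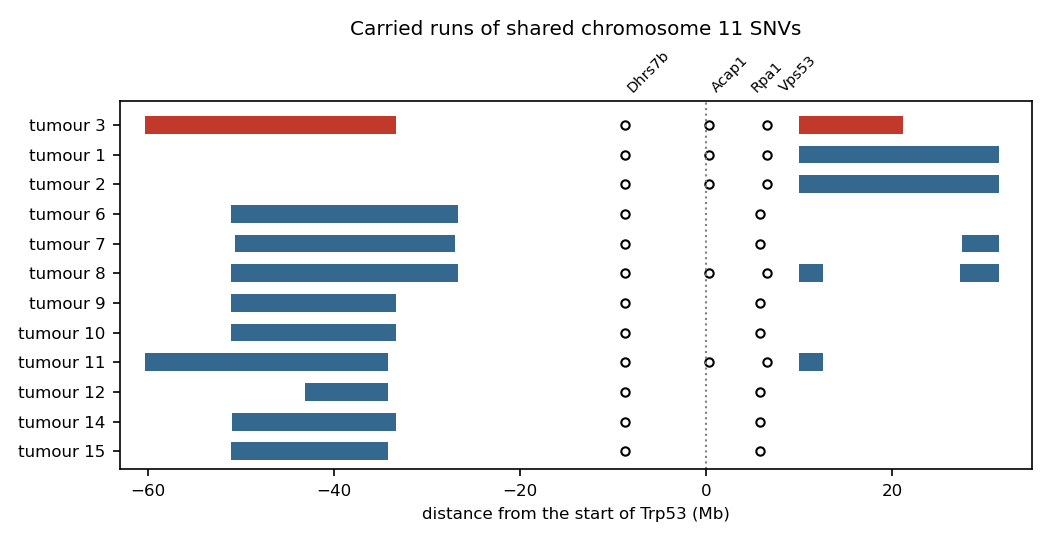
Runs of shared SNVs (bars) in the 12 tumours that have one, against distance in Mb from the start of Trp53 (dotted line), with tumour 3 in red. Open circles mark carriers of 4 single SNVs between the runs: Dhrs7b in all 12 tumours, Acap1 and Vps53 in tumours 1, 2, 3, 8 and 11, and Rpa1 in the other 7.

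The coarser rule of 1 Mb windows, in which neighbouring windows with alike carriers were joined, gave 10 segments, 7 with at least 1 carrier. Those 7 hold 1723 variants. The fullest held 939 variants from 89010988 in Trim25 to 101275757 in Wnk4, with tumours 1 and 2 as carriers. The next held 530 variants from 80165627 in Adap2 to 87167460 in Trim37, with tumours 1, 2 and 3, and the third held 213 from 18508281 to 34830688 in Spdl1, with the 10 tumours of the proximal core. Segments without a carrier held the Pisd-ps1 and Sfi1 sites at 3127180 to 3952194, the sites up to the muscle myosin gene Myh8 at 62018246 to 67308697, and 7 sites from Vezf1 to Scpep1. A further segment from Nf1 to Utp6, at 79504162 to 79946351, had 6 variants and tumour 3 as its carrier.

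Within a run the calls of 2 tumours matched at most sites, but not fully, and part of this match is set by the choice of variants. A variant needs 2 carriers to be listed, so one with no carrier but tumours 1 and 2 had to be called in both. Of the distal variants, 542 were of this kind. Runs were also found from the same calls, so these counts are a description without a test. Tumours 1 and 2 both had 1303 of the distal variants inside their runs, tumour 1 alone had 69 and tumour 2 alone 68. Tumours 3 and 11 both had 194 of the proximal variants, tumour 3 alone 13 and tumour 11 alone 22. Tumours 7 and 8 both had 157 proximal and 273 distal variants, tumour 7 alone 23 and 22, and tumour 8 alone 14 and 30. With no depth in the table, a missing call inside a run cannot be read as the reference base.

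Proximal runs held protein-altering variants in 14 genes and distal runs in 72, and 8 genes had theirs outside the runs. In total 22 genes had more than 1. The 11 genes altered in the most tumours, 9 or 10, all lay in the proximal runs. Dock2 (34226815 to 34783905), an activator of the GTPase Rac needed for lymphocyte migration, carried p.Ala879Thr and p.His804Gln in the same 10 tumours. For p.His804Gln the read share was 25.88% in tumour 3, against 36.23% to 55.93% with a median of 45.95% in the 9 other carriers. Tumour 3 lay below the whole range of the others.

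Other missense changes of the 10 tumours were p.Gly4Trp of the acylphosphatase gene Acyp2, p.Cys113Tyr of the glutathione-degrading enzyme gene Chac2, p.Glu229Gln of Asb3, p.Pro218Leu of the secreted glycoprotein gene Stc2 and p.Ala14Ser of Mpg, a DNA glycosylase that removes alkylated bases. The Asb3 change had 20.75% in tumour 3, against 39.71% to 52.63% with a median of 42.47% in the others. The Acyp2 change had 40% in tumour 3, against 35.56% to 59.46% in the others, so that tumour 3 lay within their range there. At Mpg tumour 3 had 28%, against 20% in tumour 11 and 72.73% in tumour 8, the ends of the range of the other carriers.

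The same tumours without tumour 12, 9 in all, carried 3 missense changes of the cilium gene Fam161a (23006721 to 23045743), 2 of the cilium and cell polarity gene Wdpcp and 1 of the glycosyltransferase gene B3gnt2. All lie before the place where tumour 12 joins. The 3 Fam161a changes gave read shares of 23.08% (p.His24Tyr), 18.81% (p.Phe48Leu) and 22.89% (p.Thr102Ile) in tumour 3. In the 8 other carriers they ran from 39.78% to 54.74%, from 44.55% to 49% and from 41.86% to 58.73%. All 3 put tumour 3 well below every other carrier. The kinase gene Stk10 (p.Ser908Asn) and the kinetochore gene Spdl1 (p.Glu167Gln) were also called in 9 tumours, the first without tumour 8 and the second without tumour 6.

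Protein-altering variants of the distal runs are given by the spans between run edges. The edges were found from the same calls, so that carriers follow the spans is set by the rule. The spans of tumours 1, 2 and 3 and of tumours 1 and 2 held the most, 35 and 30 such variants. The first span, in tumours 1, 2, 3, 8 and 11, held p.Arg28Gln of 5730455P16Rik and 2 changes of 1700071K01Rik. At 5730455P16Rik tumour 3 had 17.39%, against 51.85%, 41.18%, 50% and 36.84% in tumours 1, 2, 8 and 11. The last span, in tumours 1, 2, 7 and 8, held Scrn2, the mitochondrial ribosome gene Mrpl10, Osbpl7, the circadian repressor gene Nr1d1, Rapgefl1, and the genes Krtap1-3, Krtap4-7, Gm11595 and 2300003K06Rik, which lie in or beside the hair keratin-associated cluster. Nr1d1 p.Arg408Gln had 32.5%, 46.51%, 65.96% and 47.37% in these 4 tumours. Gm11595 had 3 missense changes, with read shares between 44.76% and 56.31%. Keratin-associated genes have near-identical copies, and whether reads were placed on the right copy was not tested.

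Of the 50 genes listed for their roles in blood cells, DNA repair or myeloma signalling, 49 lie on chromosome 11, 12 had any shared variant and 3 had a protein-altering one. The same shares over all genes of the chromosome were not computed, so these counts are not a result about the list. Ppm1d, whose phosphatase switches p53 signalling off, carried p.Gln590His at 20.45% in tumour 3, against 41.46% and 46.34% in tumours 1 and 2. Top2a, the DNA topoisomerase of dividing cells, carried p.Lys1266Arg at 41.94%, 61.43% and 54.65% in tumours 1, 7 and 8. Gps2, a subunit of a corepressor complex, carried a frameshift (p.Leu286Profs) outside any run, at 42.59% in tumour 24 and 45.59% in tumour 37. The gene lies at 69913980 to 69917056, close to Trp53. Stat3, the transcription factor that carries the interleukin 6 signal, had 11 shared variants and Tbx21 had 14, none of them protein-altering. Whether the 3 altered proteins work differently was not measured.

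Truncating changes were few. Besides Gps2, Agxt2l2 (RefSeq symbol Phykpl) carried a frameshift at 48.94% in tumour 29 and 43.75% in tumour 31. Hils1, a linker histone gene of sperm cells, had 2 neighbouring deletions annotated as frameshifts, at 94968245 and 94968256, in tumours 1 and 2. Their read shares were 40% and 42.11% in tumour 1, and 41.67% and 43.24% in tumour 2. On the same copy the 2 deletions together would keep the reading frame, and whether they lie on 1 copy was not tested. No shared stop gained, start lost or essential splice variant was listed. Chosen after its values were seen is Ern1, which encodes the unfolded protein sensor that secreting plasma cells rely on: the in-frame deletion p.Pro508_Phe510del had 60% in tumour 42 and 41.18% in tumour 43.

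Read shares of the shared SNVs lay near an even split in every tumour with a run except tumour 3. In the 11 others the median over chromosome 11 averaged 47.97% ± 1.75, against 48.46% ± 0.662 over the shared SNVs of the other autosomes (SD, n = 11). The difference was −0.49 ± 1.85 percentage points and did not pass a two-sided exact permutation test of paired values (p = 0.512, adjusted p = 0.682). It was above 0 in 6 tumours and below 0 in 5, and the lowest was tumour 15, with 43.4% on chromosome 11 against 48.9% on the other autosomes. Without tumour 15 the difference was 0.008 ± 0.877 points (SD, n = 10). The p-values of this and the next 3 comparisons were adjusted over the 4 by the Benjamini-Hochberg method. A p that misses the threshold of 0.05 does not show that the values are alike. Tumours with the same runs share the same variants, so the 4 tests over tumours do not rest on independent variants.

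Insertions and deletions had a median read share of 49.16% ± 3.25, against 47.97% ± 1.75 for SNVs of the same tumours (SD, n = 11), a difference of 1.19 ± 1.98 points that did not pass (exact permutation test, p = 0.0781, adjusted p = 0.156) and was above 0 in 7 tumours. With the mean over calls in place of the median the difference was 3.47 points and passed (exact permutation test, n = 11, adjusted p = 0.00391). Protein-altering calls made up 7.33% ± 0.737 of shared calls on chromosome 11, against 8% ± 0.546 on the other autosomes (SD, n = 11). The difference of −0.67 ± 0.98 points, lower in 7 of 11 tumours, did not pass (exact permutation test, p = 0.0527, adjusted p = 0.156). It passed when variants needed 3 carriers, at −0.58 points (exact permutation test, adjusted p = 0.0312). It did not pass with SNVs only, at −0.289 points, or with read shares of at least 20%, at −0.547 points (exact permutation tests, adjusted p = 0.682 and 0.238).

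Split at the median position of the variants, 90.6 Mb, the distal side had a median share of 48.07% ± 0.558 and the proximal side 48.39% ± 1.21 (SD) in the 4 tumours with enough SNVs on both, 1, 2, 7 and 8. The difference of −0.32 ± 1.19 points did not pass (exact permutation test, n = 4, p = 0.875), and 0.125 is the smallest p that 4 tumours allow. It was 2 points in tumour 8, and without that tumour it was 0.247 points the other way.

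Tumour 3 had been singled out for its low read share, so its values are given without a test. Over 620 shared SNVs of chromosome 11 its median was 29.9% (quartiles 25% and 34.8%), against 47.9% for the median of the other carriers at the same SNVs. It was lower at 582 of the 620, or 93.9%, and the median of the paired differences was −17.8 points. On the other autosomes with at least 20 shared SNVs to compare, it was lower at 880 of 1803 SNVs, or 48.8%. Of these, 1083 lay on chromosome 3, where 50.5% were lower. Single chromosomes ranged from 18.6% lower on chromosome 4 to 66.2% on chromosome 7. In the 11 other tumours with runs the same comparison on chromosome 11 gave 37.8% to 73.9% of SNVs lower and a median difference of −6.2 to 2.79 points, with tumour 15 at the low end.

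The low share was spread along the chromosome. Over the proximal runs tumour 3 had a median of 30.3%, against 48.46% ± 2.16 in the 9 other carriers, which ran from 43.6% to 51.5%. Over the distal runs it had 29.4%, against 48.46% ± 0.954 in the 5 other carriers, from 47.37% to 50%. In windows of 10 Mb with at least 12 SNVs its median ran from 26.9% to 31.7%, against 44.4% to 48.8% for the other carriers. The lowest window, at 90 to 100 Mb, rests on 24 SNVs, and the fullest, at 80 to 90 Mb, on 404, with 29.9% in tumour 3 against 47.1%. At the 3 SNVs of the gap that it shared, in Dhrs7b, Acap1 and Vps53, it had 24%, 35% and 33.33%, against medians of 55.8%, 56% and 51.1% in the other carriers.

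**Figure D2:**
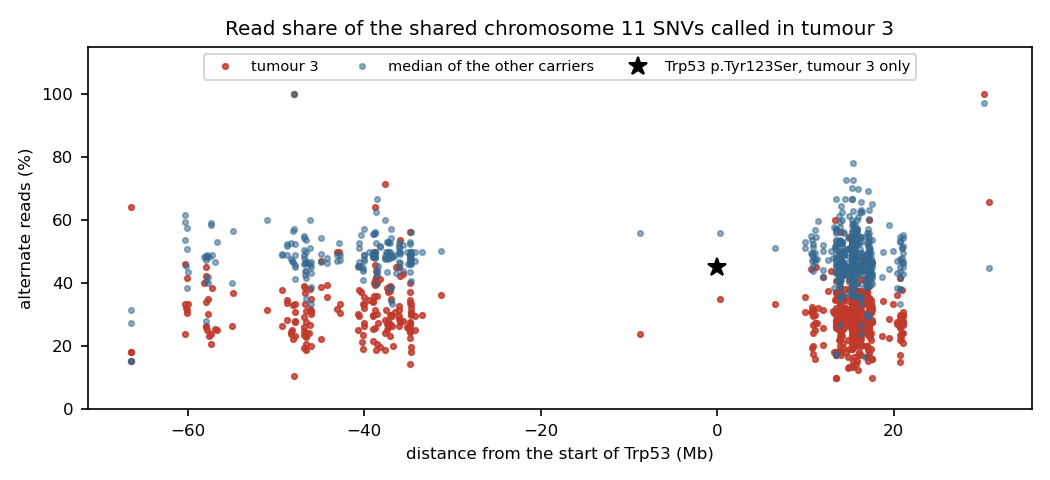
Read share in percent at each of the 620 shared chromosome 11 SNVs of tumour 3 (red) and the median of the other carriers at the same SNVs (blue), against distance in Mb from the start of Trp53. The red points centre near 30% on both sides of Trp53 and the blue points near 48%, and the star is the private Trp53 change of tumour 3 at 45.28%.

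**Figure D3:**
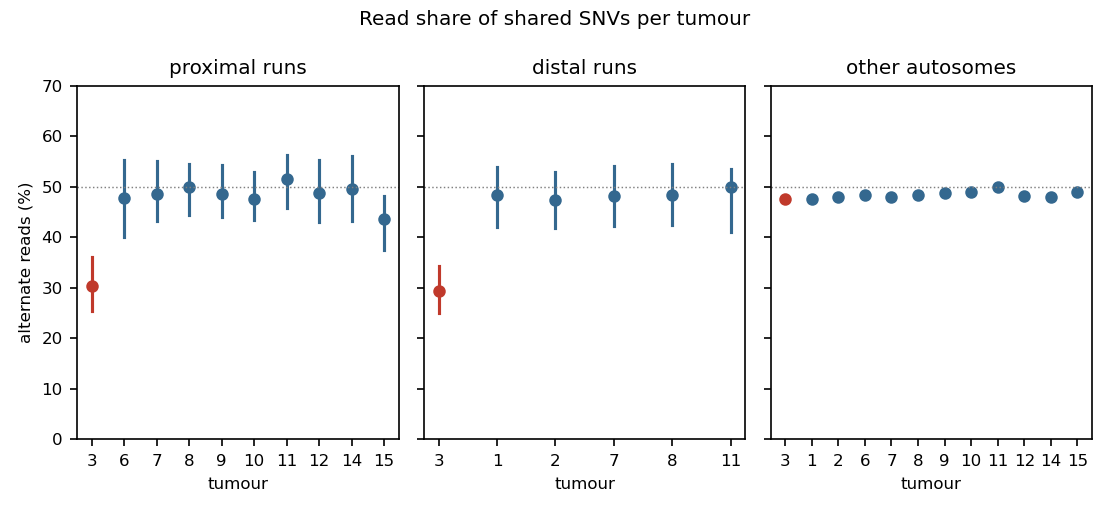
Median read share in percent (points) with quartiles (lines) per tumour over SNVs of the proximal and distal runs, and the median over shared SNVs of the other autosomes, with tumour 3 in red and placed first. Tumour 3 lies at 30.3% and 29.4% on chromosome 11 and at 47.6% on the other autosomes, where the others lie between 47.6% and 50%.

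On the other autosomes with at least 20 comparable SNVs tumour 3 was closer to the other carriers. Its median over the shared SNVs of all other autosomes was 47.6%, against 47.62% to 50% in the 11 other tumours. On chromosome 3, with 1083 SNVs, it had 47.8% against 48.5%, and on chromosome 16 it had 48.6% against 49.3%. The next largest downward differences were on chromosome 1, with a median difference of −4.51 points over 64 SNVs, and chromosome 7, with −4 points over 133 SNVs. On chromosome 8 the difference was 3.52 points upward and on chromosome 4 it was 6.15 points upward, over 142 and 86 SNVs.

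**Figure D4:**
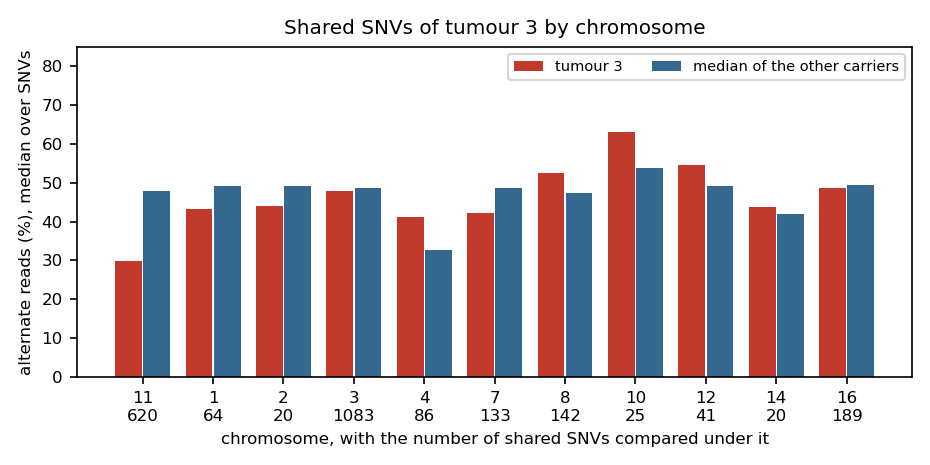
Median read share in percent of tumour 3 (red) and of the median of the other carriers (blue) over the shared SNVs of each chromosome on which at least 20 could be compared. The pair for chromosome 11 is 29.9% against 47.9%.

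Tumour 3 also had 110 private chromosome 11 variants, 94 of them SNVs with a median read share of 29%. The 29 private SNVs between 4939585 and 9056408, just before its proximal run, had a median of 31.6%, and 25 of them were under 40%. The 59 inside its runs had a median of 27.3%, with 51 under 40%. Private SNVs of the 43 other tumours had a median of 30% when pooled (692 SNVs), but tumours differed: among those with runs it was 46.7%, 45.2% and 40% in tumours 1, 2 and 8, and 12.1% to 18.8% in the other 8, which had 11 to 25 private SNVs each. Among those of tumour 3 are the missense changes p.Lys1011Asn of the neurofilament gene Nefh at 38.05%, p.Gly214Val of the adenylate cyclase gene Adcy1 at 26.19% and p.Val397Ile of Heatr6 at 27.27%.

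In the gap that holds Trp53 its private variants were few and spread wider. The only Trp53 variant of the table was private to tumour 3: p.Tyr123Ser at position 69588365, an A-to-C change in the coding sequence, at 45.28%. Its neighbour p.Ala2643Val of the dynein gene Dnah2, at 69455831, had 66.07%, and p.Thr1847Met of the atypical cadherin gene Fat2, at 55284346, had 73.03%. The 4 private insertions or deletions there, in Adam19, Hspa4, Fnip1 and Ksr1, had 88.89%, 64.29%, 76.74% and 72.73%, and the SNVs of Myo15 and Atp2a3 had 12.5% and 10.53%. The 3 missense changes thus had higher shares than the 24%, 35% and 33.33% of the shared SNVs in the same gap. The number of these private variants is small, and whether their shares differ from those elsewhere was not tested.

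The 145 variants outside the runs differed from those inside, in part because of how runs were found. The run rule used only SNVs, and only those with a median read share within its limits. A lower fraction of SNVs and more extreme read shares outside the runs are therefore partly set by that rule. How large this part is was not tested. SNVs made up 45.5% of the 145 variants outside the runs, against 83.3% of the proximal and 86% of the distal ones. Their median read share was below 30% at 62 and at least 85% at 27, whereas 84.1% of the proximal and 77.7% of the distal variants had a median between 40 and 60%. Transitions made up 63.6% of their SNVs, against 72.4% and 73.2%. Upstream SNVs of Sfi1 at 3194172 and 3193686 had medians of 16% in 12 tumours and 13.3% in 9, and an intronic one at 3184938 had 16% in 6. Neighbouring upstream SNVs of the olfactory receptor gene Olfr322, at 58665440 and 58665448, were called in the same 10 tumours at medians of 8.71% and 8.94%. The missense change p.Val195Leu of Fam58b, whose RefSeq symbol is Ccnq, had a median of 10% in 7 tumours, none with a run, and an intergenic deletion or insertion at 3952194 had 2.6% in 8.

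At the high end, insertions or deletions in introns of Nf1 (79504162, 12 tumours) and of the keratin gene Krt24 (99280488, 9 tumours) had a median of 100%, and so did one in Sptbn1 at 30146088, in 8 tumours within the proximal runs. Besides that of Ern1, in-frame changes outside the runs were p.Pro252_Pro266del of Kdm6b, a histone demethylase gene named here after its values were seen, at 33.33% in tumour 10 and 25% in tumour 13, p.Ala133_Ser147del of Zcchc10, at 34.38% in tumour 3, against 8.11% to 23.81% in 5 other tumours, and p.Pro104_Val122del of Krtap4-16, at 55.1% to 68.63% in 3 tumours. In Slfn9, singled out after its values were seen, neighbouring missense changes p.Cys404Tyr and p.Cys404Arg had the same read shares, 9.82% in tumour 3, against 18.97% and 16.1% in tumours 1 and 2. Its other 2, p.Lys796Arg and p.Lys428Asn, had 27.82% and 35.04% in tumour 3, against 44.44% to 57.52% in tumours 1 and 2. Slfn genes have close copies beside each other, and the placement of their reads was not tested.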

How the data were processed

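Exomes of 44 IL6Myc tumours were read from 1 deposited table of variants. Capture used the 50 Mb Agilent SureSelect mouse design, per the labels' protocols, and calling used GATK on mm10, per the submitters' processing notes. The sources used here give no aligner, version, filter or role of the kidneys in calling. The deposited cells hold the percent of alternate reads as text, and a further deposited column the count of carriers. Not analysed here were tumour 4 and the 5 kidneys. Depth is unknown.

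Of 25823 rows, 25624 with 1 alternate allele were used. Medians were taken per tumour, and 4 comparisons were tested over tumours with at least 20 shared SNVs on chromosome 11 (tumour 3 left out) by paired permutation tests in SciPy 1.17.1, with Benjamini-Hochberg adjustment. Runs were a rule added after seeing the data. Genes are named by rule: the 25 with protein-altering variants in the most tumours, those with a truncating variant, altered members of the list, those at segment ends, and up to 10 variants with a median share of at least 85% or under 30%. Other genes named at run edges, in the gap or as private were chosen after their values were seen. The members and lists were chosen with earlier results of these data known. Alternatives were other limits on carriers, read share and SNVs, means, leaving out tumours, and other window and run settings.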

Additional observations from a re-analysis of the deposited data

Results flagged for a closer look

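In 36 groups of 4 to 10 tumours the lowest or highest value was compared with its neighbour by Dixon's limit, which by chance marks about 1 in 20 groups. It marked 6, all with tumour 3 lowest. That tumour was chosen for this low share and the 6 values are linked, so the marks are a description, no test, and their number is not to be read against chance. Over the proximal runs tumour 3 had a median share of 30.3%, against 43.62% in the next tumour and 51.48% in the highest of 10. Over the distal runs it had 29.44%, against 47.37% in the next and 50% in the highest of 6. At Fam161a it had 23.08% for p.His24Tyr, 18.81% for p.Phe48Leu and 22.89% for p.Thr102Ile, against 39.78%, 44.55% and 41.86% in the next of 9 carriers. At Asb3 p.Glu229Gln it had 20.75%, against 39.71% in the next of 10. Depth was not measured, so its part in these differences was not tested.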

How the results depend on the processing

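No paired analysis was possible because there is 1 group, so no replicate number joins samples of 2 groups (the 4 comparisons are paired within each tumour). With a minimum of 10 SNVs per tumour, which adds 6 tumours without runs (n = 17), the chromosome 11 difference from the other autosomes was −12.1 points, that of insertions and deletions from SNVs 15.9, and that of protein-altering shares −2.31, all past the threshold by permutation tests (adjusted p = 0.0298, 0.00416 and 0.00424), the cause not tested. With means, insertions and deletions differed from SNVs by 3.47 points, and with 3 carriers protein-altering shares differed by −0.58. With SNVs only, protein-altering shares differed by −0.289 points, which did not pass. Leaving out 1 of 4 tumours gave a distal minus proximal difference of −0.66 to 0.247, which reversed without tumour 8. The chromosome 11 difference from the other autosomes turned to 0.008 points without tumour 15, chosen after seeing the data. Segments numbered 17 with 3 variants per window and 4 with SNVs only, against 10, and altered genes 59 with 3 carriers, against 94, the cause not tested. The median of tumour 3 moved from its own 29.9% by less than 1.75 points, the SD of the other tumours, under all 7 alternatives run, private SNVs included. With 21 neighbours, or all variants (both chosen after seeing the data), 17 runs were found again, in the same tumours, but edges moved. With 21 neighbours the proximal runs of tumours 11, 12 and 15 ended at 36171369, and the distal run of tumour 1 at 101070226. Proximal runs then began at 20290290 in tumour 7 and at 18885797 in tumours 9 and 10. With all variants the proximal runs of tumours 3 and 8 ended at 35323794, and distal runs began at 80165627 in tumours 1, 2, 3, 8 and 11. Without depth, single percents have no error, and missing calls limit every edge.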
